A study of Homo sapiens with 6 samples.

Results

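Alpha and beta tubulin isotypes were followed in human RPE-1 cells after knockdown of the splicing factor SON. The members were the rows of the gene count table named TUBA1A, TUBA1B, TUBA1C, TUBA4A, TUBB, TUBB2A, TUBB2B, TUBB3, TUBB4B and TUBB6, which is 10 of 58735 genes listed, 4 alpha and 6 beta. RPE-1 is an established retinal pigment epithelial cell line, and the derivative used here carries GFP-tagged CETN2, a centriole protein, and a PLK4 gene driven by an rtTA-dependent, doxycycline-inducible promoter. There were 6 libraries: 3 from cells given scramble siRNA (siControl) and 3 from cells given siRNA to SON (siSON). All 6 were also treated with doxycycline at 1 µg/mL, which switches on PLK4, a kinase that initiates centriole formation. Thus the controls also carry the transgenes and the induced kinase, and no library without PLK4 induction was compared. The study links SON to intracellular trafficking and centriole assembly, and the comparison measures the mRNA changes that follow its knockdown.

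Alpha and beta tubulin form the heterodimer from which microtubules are built, including the microtubules of the centriole wall, the spindle and the cilium. Isotypes of a class are near-identical proteins that differ mainly in their acidic C-terminal tails, where most tubulin modifications and many microtubule-associated proteins act. TUBA1B, TUBA1C, TUBB and TUBB4B are expressed in most cell types, TUBA1A, TUBB2A, TUBB2B and TUBB3 are best known from developing neurons, and TUBB6 is a broadly expressed divergent beta isotype. Cells also adjust tubulin mRNA to the amount of free tubulin. When free heterodimers are abundant, TTC5 recognises the N terminus of the tubulin chain as it leaves the ribosome and, through SCAPER, brings the CCR4-NOT deadenylase to the translated mRNA.

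The coding starts of the 10 isotypes are shown because they encode the N-terminal residues that TTC5 reads. Each is the first 24 coding bases of the principal transcript in GENCODE release 29 (GRCh38), 5′ to 3′, with the first 4 codons in capitals.
TUBA1A: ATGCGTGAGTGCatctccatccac
TUBA1B: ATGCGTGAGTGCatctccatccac
TUBA1C: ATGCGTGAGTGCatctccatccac
TUBA4A: ATGCGTGAATGCatctcagtccac
TUBB: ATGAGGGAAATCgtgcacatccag
TUBB2A: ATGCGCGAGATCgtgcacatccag
TUBB2B: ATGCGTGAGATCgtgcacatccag
TUBB3: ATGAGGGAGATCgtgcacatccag
TUBB4B: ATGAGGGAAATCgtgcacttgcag
TUBB6: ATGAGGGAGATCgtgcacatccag
TUBA1A, TUBA1B and TUBA1C began with the same 24 bases. TUBB and TUBB4B shared their first 4 codons, as did TUBB3 and TUBB6. All 10 principal transcripts had 4 exons and 3 introns. In the 4 alpha genes the coding part of the first exon was the start codon alone (3 bases), and in the 6 beta genes it was 57 bases.

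Over the whole coding sequence TUBA1A was 97.2% identical to TUBA1B and 95.9% to TUBA1C, and TUBB2A was 98.1% identical to TUBB2B with an unbroken run of 725 identical bases. Reads from such runs cannot be assigned by sequence, and how reads that map to several places were counted is not given in the sources used here, so the split of counts within TUBA1A, TUBA1B and TUBA1C and within TUBB2A and TUBB2B is uncertain. Every other pair within a class was at most 87.7% identical, apart from TUBA1B with TUBA1C at 96.8%. Some of these pairs still held long identical runs. TUBB3 shared runs of 185 bases with TUBB2A and TUBB2B and of 140 bases with TUBB4B. TUBB2A and TUBB2B each shared a run of 143 bases with TUBB4B. How far reads from these runs affect the counts of TUBB2A, TUBB2B, TUBB3 and TUBB4B was not tested.

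Library totals ran from 54572365 to 69764836 counts. SON itself had a control mean of 297 ± 14.5 CPM (counts per 1000000 counts of the scaled library; SD, n = 3) against 67.6 ± 2.5 CPM after knockdown (SD, n = 3), a log2 fold change of -2.14 (SE 0.06, edgeR adjusted p 6.78e-10). The fit covered 16591 genes, of which 71.7% were called changed at an adjusted p under 0.05, 35.2% higher and 36.5% lower in siSON, so a call by itself did not set a gene apart. CPM were scaled by TMM, a method that centres the bulk of genes. Scaling by library size alone moved the log2 fold changes of all genes by a median of -0.20, and cyclic loess normalization, which fits the scaling along expression level, by 0.14. Of the retinal pigment epithelium markers, OTX2 and MITF were present at 19.9 ± 0.324 and 21.7 ± 0.517 CPM (SD, n = 3 each) in siControl, RPE65 was at 0.144 ± 0.0988 CPM there and TYR was at 0 counts in all 6 libraries. Of the 8 markers 4 were tested, and 3 rose (OTX2 by 0.82, MITF by 0.52 and BEST1 by 0.62 on the log2 scale). PMEL, a melanosome protein at a low level, fell to 9.71% of control (log2 fold change -3.36, edgeR adjusted p 3.72e-07). It had 2.06 ± 0.0434 CPM (142, 130 and 158 counts) in siControl and 0.20 ± 0.0447 CPM (10, 13 and 9 counts) in siSON (SD, n = 3 each). Nothing in the labels says whether libraries came from separate cultures, so p-values measure the spread between these libraries, which may be technical. In bulk RNA, fewer cells expressing a gene and less of its RNA per cell cannot be told apart.

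After SON knockdown the tubulin isotypes moved in opposite directions, TUBA1A and TUBB4B falling most and, with TMM scaling, TUBA4A rising most. All 10 members passed the filter on low counts and 9 were called changed, 4 higher and 5 lower, beside the 71.7% called among all genes tested. Their median log2 fold change was -0.13, beside -0.027 for all genes tested, with a range of -1.53 to 0.85. The members' median was -0.33 with library size alone, -0.59 with cyclic loess (where that of all genes tested was 0.038) and -0.046 without siSON replicate 1. The groups did not overlap for 8 members, where 75.1% of all genes tested had groups that did not overlap. Falls of at least 2-fold were seen for 2 members, beside 20.5% of all genes tested. Among the alpha isotypes 1 fell and 2 rose, and among the beta isotypes 4 fell and 2 rose. With library size alone or with cyclic loess the split was 2 higher and 6 lower. Of all genes tested, 71.1% and 70.4% were called at these scalings, and 37.7% and 51.7% of those calls were higher. Within the siSON group, replicate 1 gave the lowest CPM for 9 of the 10 members and replicate 3 the highest for 9. Within siControl, replicate 2 gave the lowest for 9.

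**Figure D1:**
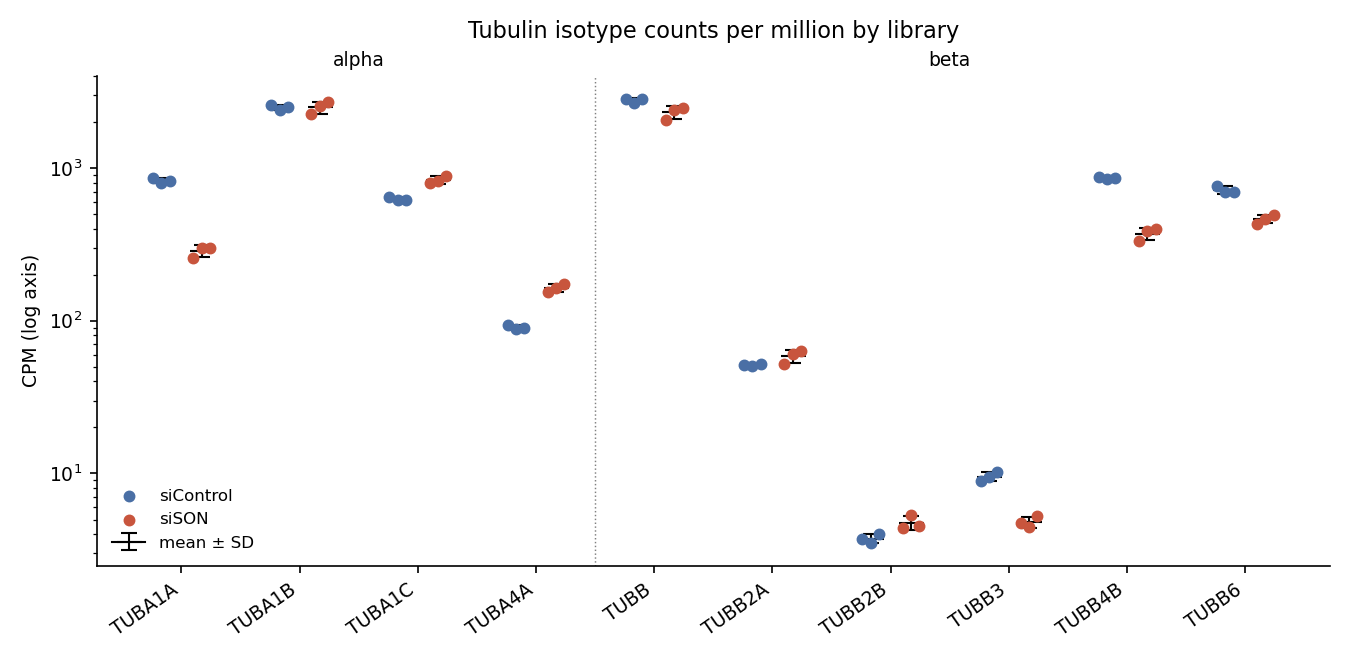
CPM (log axis, TMM-scaled) of each tubulin isotype, with 1 point per library (siControl blue, siSON red) and the group mean ± SD in black. TUBA1A, TUBB, TUBB3, TUBB4B and TUBB6 lie lower in every siSON library than in any siControl library, and TUBA1C, TUBA4A and TUBB2B lie higher in every siSON library (TUBA1C does not rise with cyclic loess).

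Among the alpha isotypes, TUBA1A, the main alpha isotype of migrating neurons and mutated in lissencephaly, showed the largest fall. It lies on chromosome 12 from 49184796 to 49189324 on the minus strand (ENSG00000167552). In replicate order, the siControl libraries had 864, 794 and 824 CPM and the siSON libraries 256, 300.0 and 301 CPM, an order kept for the other isotypes. The siSON libraries held 34.5% of the control mean. Every siSON library was far below every siControl library. Its log2 fold change of -1.53 (SE 0.07, edgeR adjusted p 8.68e-09) stayed between -1.93 and -1.45 under the 14 alternatives run. Of its exon bases, 14.3% also lie in exons of TUBA1C on the other strand, and the strand setting of the counting is not given in the sources used here.

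TUBA1B, the most abundant alpha isotype in these cells, showed no detectable change with TMM scaling. Its gene lies on chromosome 12 from 49127782 to 49131397 on the minus strand (ENSG00000123416), and 36.6% of its exon bases are shared with the antisense gene AC011603.2, which had 14.1 ± 1.20 and 14.8 ± 0.215 CPM (SD, n = 3 each) in siControl and siSON. TUBA1B had 2573, 2377.5 and 2485 CPM in siControl and 2247.5, 2528 and 2695 CPM in siSON. The siSON libraries lay on both sides of the control range. Its log2 fold change was 0.0067 (95% interval -0.14 to 0.15, edgeR adjusted p 0.933). It was -0.19 (adjusted p 0.0228) with library size alone, which is about the shift of all genes under that scaling, and -0.48 (limma adjusted p 5.7e-05) with cyclic loess. Leaving out siControl replicate 2 or siSON replicate 3 gave -0.042 in each case (edgeR adjusted p 0.643 and 0.596).

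TUBA1C, a widely expressed isotype whose gene lies beside TUBA1A (chromosome 12, 49188736 to 49274603, plus strand, ENSG00000167553), was higher in siSON with TMM scaling, though not with cyclic loess. It had 647, 616 and 617 CPM in siControl and 802, 817 and 888.5 CPM in siSON, and the groups did not overlap. On the log2 scale this was 0.42 (SE 0.05, edgeR adjusted p 2.44e-05), with 0.22 (adjusted p 0.00247) with library size alone, and -0.0029 (limma adjusted p 0.959) with cyclic loess, so the direction of TUBA1C rests on the scaling. It shares 10.6% of its exon bases with TUBA1A and 14.4% with the antisense gene AC125611.3.

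TUBA4A, a gene mutated in some amyotrophic lateral sclerosis families, showed the largest rise with TMM scaling or library size alone, while with cyclic loess TUBB2B rose more (0.68 against 0.58). It lies on chromosome 2 from 219249711 to 219278170 on the minus strand (ENSG00000127824). It had 94.3, 88.2 and 89.6 CPM in siControl and 154, 163 and 173 CPM in siSON, 180.03% of the control mean. All siSON libraries were above all siControl libraries. TUBA4A thus rose by 0.85 on the log2 scale (SE 0.06; adjusted p 2.09e-07 with edgeR), or by 0.65 with library size alone and 0.58 with cyclic loess. STK16, on the other strand and sharing 15.4% of the exon bases of TUBA4A, went the other way, from 21.0 ± 0.462 to 9.77 ± 0.689 CPM (means ± SD of 3 libraries; log2 fold change -1.10, edgeR adjusted p 4.39e-07).

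Among the beta isotypes, TUBB4B, a major isotype of proliferating cells and of ciliary axonemes, fell most. It lies on chromosome 9 from 137241213 to 137243707 on the plus strand (ENSG00000188229) and is the most compact of the 10 genes, with 858 intron bases in all and a shortest intron of 81 bases. It had 869, 841 and 861 CPM in siControl and 333, 383 and 397 CPM in siSON, which is 43.3% of the control mean. The groups were far apart. With edgeR its log2 fold change was -1.21 (SE 0.06, adjusted p 2.95e-08) and ran from -1.61 to -1.12 over the alternatives.

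TUBB3, the beta isotype used as a marker of neurons, was counted at a low level and fell to 50.6% of the control mean. It lies on chromosome 16 from 89921392 to 89938761 on the plus strand (ENSG00000258947). It had 8.91, 9.42 and 10.2 CPM (622, 599 and 762 counts) in siControl and 4.72, 4.48 and 5.23 CPM (274, 231 and 266 counts) in siSON. No siSON library reached the lowest siControl library. TUBB3 fell by 0.98 on the log2 scale (SE 0.11; adjusted p 9.96e-06 with edgeR). Of its exon bases, 35.8% are shared with AC092143.1, a protein-coding gene on the same strand that was listed at 0 counts in all 6 libraries, and how reads from the shared bases were counted is not given in the sources used here.

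TUBB6, the divergent isotype, lies on chromosome 18 from 12307669 to 12344320 on the plus strand (ENSG00000176014) and has the longest introns of the 10, with 16497 intron bases. It had 763, 690.0 and 697 CPM in siControl and 432, 464 and 490.2 CPM in siSON. The groups were apart. In edgeR TUBB6 changed by -0.63 on the log2 scale (SE 0.06, adjusted p 2.52e-06), or by -1.04 with cyclic loess. AFG3L2, on the other strand and sharing 20.3% of the exon bases of TUBB6, was higher in siSON (66.5 ± 3.79 against 82.5 ± 2.77 CPM, means ± SD of 3 libraries; log2 fold change 0.31, edgeR adjusted p 0.000755).

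TUBB, the most abundant beta isotype of dividing cells, fell by less. Its gene lies on chromosome 6 from 30720201 to 30725426 on the plus strand (ENSG00000196230), and 16% of its exon bases are shared with the antisense gene AL662797.1. It had 2841, 2676 and 2813 CPM in siControl and 2061, 2376 and 2479 CPM in siSON. Every siSON library was below every siControl library, with replicate 1 lowest. Its log2 fold change was -0.27 (SE 0.07; adjusted p 0.00336 with edgeR). It was -0.18 (adjusted p 0.00493) without siSON replicate 1, -0.46 with library size alone and -0.76 with cyclic loess.

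TUBB2A and TUBB2B, neighbouring genes on chromosome 6 that are best known from the brain, were slightly higher in siSON with TMM scaling, TUBB2A not with library size alone. TUBB2A (3153669 to 3157526, minus strand, ENSG00000137267) had 51.4, 50.3 and 52.1 CPM in siControl and 52.0, 60.1 and 63.8 CPM in siSON. Its groups overlapped, since siSON replicate 1 lay inside the control range. The edgeR log2 fold change was 0.19 (SE 0.08, adjusted p 0.0398). TUBB2B (3224261 to 3231730, minus strand, ENSG00000137285) had 3.73, 3.51 and 4.02 CPM (260, 223 and 300 counts) in siControl and 4.41, 5.37 and 4.54 CPM (256, 277 and 231 counts) in siSON. The log2 fold change of TUBB2B was 0.35 (SE 0.13, edgeR adjusted p 0.0347). Neither call was stable. TUBB2A was not called with library size alone (-0.0034, adjusted p 0.971), with cyclic loess (0.036, limma adjusted p 0.671), with a mean count of at least 50 (0.14, adjusted p 0.119) or without siControl replicate 1, 2 or 3 (adjusted p 0.109, 0.154 and 0.081) or siSON replicate 2 or 3 (adjusted p 0.0963 and 0.137). TUBB2B was not called with library size alone (0.15, adjusted p 0.329), with no filter (0.35, adjusted p 0.0531), with a mean count of at least 50 (0.29, adjusted p 0.0661) or without siControl replicate 1 or 2 (adjusted p 0.0911 and 0.144) or siSON replicate 2 (adjusted p 0.126). With cyclic loess the TUBB2B value was 0.68 (limma adjusted p 0.000813). PSMG4, on the other strand and sharing 7.9% of the exon bases of TUBB2B, had a mean of 7.51 ± 0.503 CPM in siControl and fell to 1.88 ± 0.0178 CPM (n = 3, SD; log2 fold change -2.0002, edgeR adjusted p 9.02e-08).

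**Figure D2:**
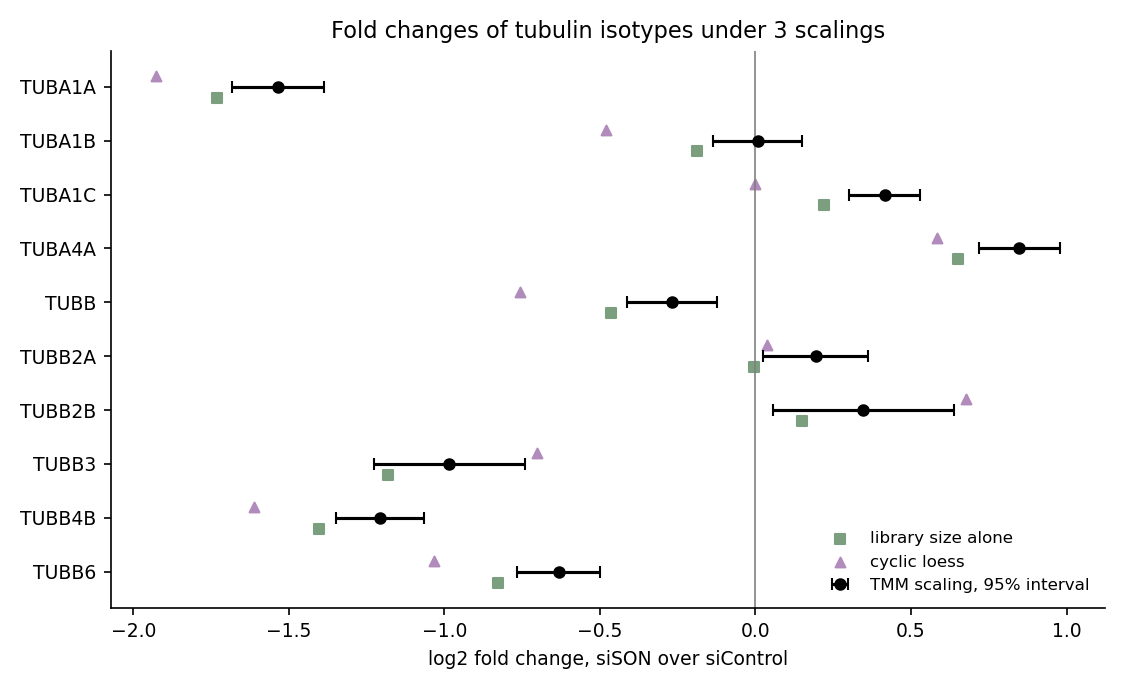
Log2 fold change of each isotype (siSON over siControl) with TMM scaling and its 95% interval (black), with library size alone (green squares) and with cyclic loess (purple triangles). TUBA1A, TUBB, TUBB3, TUBB4B and TUBB6 stay below 0 and TUBA4A and TUBB2B above 0 under all 3 scalings, while TUBA1B, TUBA1C and TUBB2A change sign.

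Whether isotypes of a class moved by different amounts was tested on their log2 ratios in each library, which do not depend on a library's single scaling factor, although a scaling that varies with expression level, such as cyclic loess, can change them. In siSON the ratio of TUBA1A to TUBA1B was lower by -1.54 on the log2 scale, from -1.58 ± 0.0093 to -3.12 ± 0.0447 (SD, n = 3 each). The ratio of TUBA1C to TUBA1B was higher by 0.41 and that of TUBA4A to TUBA1B by 0.84. The ratio of TUBB3 to TUBB was lower by -0.71 and that of TUBB6 to TUBB by -0.36. All 5 pairs had groups that lay apart, with p = 0.1 by a 2-sided exact permutation test, the smallest that 3 libraries against 3 allow (0.12 after Benjamini-Hochberg adjustment over the 6 pairs). With cyclic loess TUBB3 and TUBB had log2 fold changes of -0.70 and -0.76, so the lower TUBB3 to TUBB ratio was not seen at that scaling. The ratio of TUBB2B to TUBB2A differed by 0.16, with groups that overlapped (exact permutation p = 0.3, adjusted 0.3).

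Levels of different isotypes were compared per kilobase of principal transcript. In siControl the alpha order was TUBA1B with 1523 ± 60.3, TUBA1A with 432 ± 18.3, TUBA1C with 209 ± 5.90 and TUBA4A with 41.9 ± 1.499 CPM per kb (SD, n = 3 each), and no neighbours in this order overlapped. In siSON TUBA1B had 1530.5 ± 139 CPM per kb and TUBA1C, with 279 ± 15.4, stood above TUBA1A, with 149 ± 13.3 (SD, n = 3 each). TUBA4A followed with 75.5 ± 4.39 CPM per kb. TUBA1A and TUBA1C thus exchanged places. As shares of the alpha sum, TUBA1A went from 19.6% ± 0.0924 to 7.34% ± 0.239, TUBA1C from 9.47% ± 0.178 to 13.7% ± 0.620 and TUBA1B from 69.0% ± 0.211 to 75.2% ± 0.612 (SD, n = 3 each). The share of TUBA4A went from 1.90% ± 0.0212 to 3.72% ± 0.104.

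In siControl the beta order was TUBB with 1040.0 ± 33.1, TUBB4B with 524 ± 8.75, TUBB6 with 347 ± 19.6, TUBB2A with 32.1 ± 0.564, TUBB3 with 5.38 ± 0.366 and TUBB2B with 1.86 ± 0.126 CPM per kb (SD, n = 3 each). In siSON TUBB had 863 ± 81.5 and TUBB2A 36.7 ± 3.78 CPM per kb. TUBB4B and TUBB6, at 227 ± 20.7 and 224 ± 14.1 CPM per kb, no longer differed beyond their spread, and neither did TUBB3 and TUBB2B, at 2.72 ± 0.218 and 2.36 ± 0.257 CPM per kb (SD, n = 3 each). As a share of the beta sum TUBB went from 53.3% ± 0.427 to 63.7% ± 0.429 and TUBB4B from 26.9% ± 0.355 to 16.7% ± 0.0985, while TUBB6 had 17.8% ± 0.611 and 16.5% ± 0.523 (SD, n = 3 each). With the length of all annotated exons in place of the principal transcript, the siSON shares of TUBB4B and TUBB6 were 17.4% and 11.1% and those of TUBB2B and TUBB3 were 0.216% and 0.108%, so the closeness of both pairs rests on the length used.

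**Figure D3:**
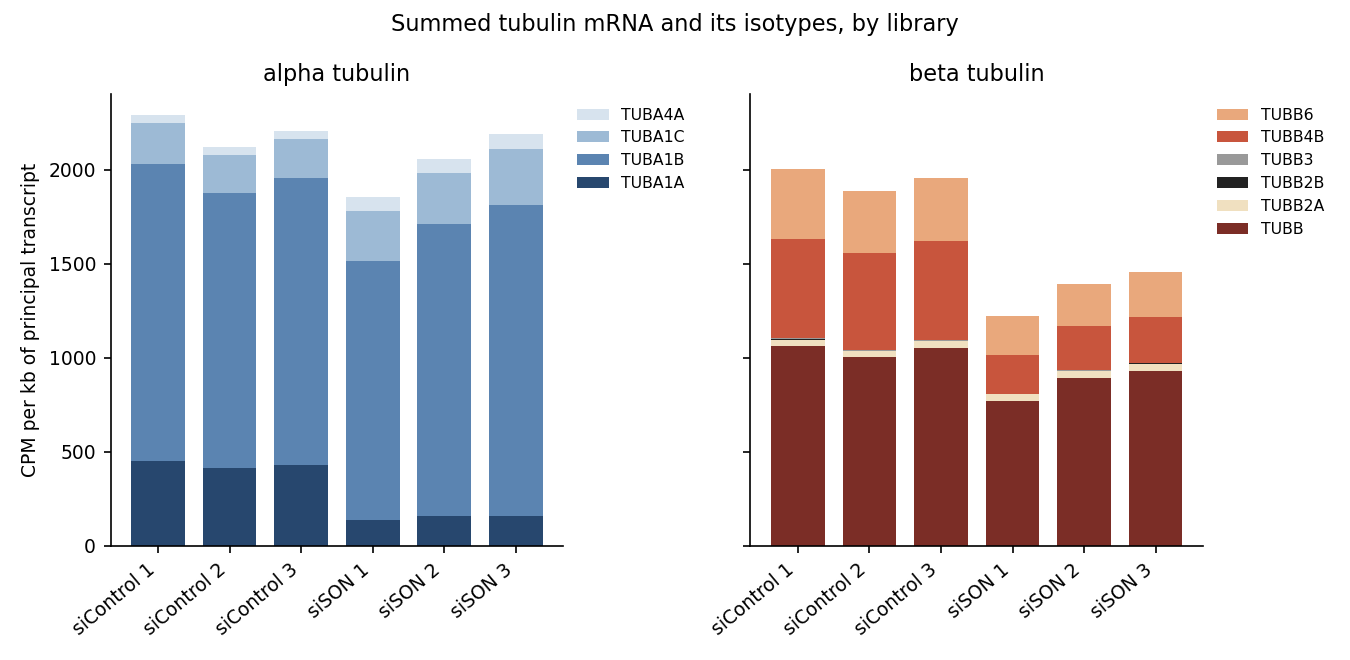
Stacked CPM per kb of principal transcript for the alpha isotypes (left) and beta isotypes (right) in each of the 6 libraries. The beta stacks are 1889 to 2004 in siControl and 1222 to 1454 in siSON, and the alpha stacks of the groups overlap.

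Summed over isotypes with TMM scaling, alpha tubulin mRNA overlapped between the groups while beta tubulin mRNA was lower in every siSON library. The alpha sum was 4179, 3876 and 4015 CPM in siControl and 3460, 3808 and 4057 CPM in siSON, a mean log2 difference of -0.094, which was -0.033 without siSON replicate 1 and -0.15 without siSON replicate 3. The beta sum was 4537, 4271 and 4438 CPM in siControl and 2887, 3293 and 3440 CPM in siSON, a mean log2 difference of -0.46. The alpha difference was -0.29 with library size alone, where the groups did not overlap, and the beta difference was -0.66. Sums were not computed with cyclic loess, where TUBA1B and TUBB, the most abundant of each class, had log2 fold changes of -0.48 and -0.76. Per kilobase of principal transcript, the ratio of the alpha to the beta sum was 1.14, 1.12 and 1.13 in siControl and 1.52, 1.48 and 1.51 in siSON. With the length of all annotated exons, the alpha and beta sums were 1093 ± 41.8 and 1440 ± 41.0 CPM per kb in siControl. In siSON they were 1001 ± 81.3 and 1012 ± 91.3 (SD, n = 3 each). The level of alpha against beta thus rests on the length used. Tubulin pseudogenes took 0.0632% to 0.0799% of the alpha counts and 0.142% to 0.276% of the beta counts, most of the latter from TUBBP1, with 445, 457 and 523 counts in siControl and 446, 427 and 481 in siSON.

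Outside these 10 isotypes, 13 further tubulin genes were examined and 4 of them were expressed enough to be tested. TUBG1, the main gamma tubulin of the microtubule nucleating ring, fell from 124 ± 7.85 to 9.82 ± 1.17 CPM (log2 fold change -3.66, edgeR adjusted p 6.06e-10), and its paralog TUBG2 rose from 15.9 ± 1.024 to 25.4 ± 2.61 CPM (0.67, adjusted p 4.99e-05; SD, n = 3 each). TUBD1, delta tubulin of the centriolar triplet, rose from 3.4955 ± 0.660 to 7.57 ± 0.422 CPM (means ± SD of 3 libraries; log2 fold change 1.12, edgeR adjusted p 3.15e-05). TUBE1, epsilon tubulin, was not called, with 6.27 ± 0.384 and 6.40 ± 1.12 CPM (means ± SD of 3 libraries; log2 fold change 0.031, edgeR adjusted p 0.851). The testis-enriched TUBA3C, TUBA3D and TUBA3E and the oocyte isotype TUBB8 were at 0 counts in every library, and the platelet isotype TUBB1 had at most 1 count. TUBA8 had 1, 2 and 0 counts in siControl and 13, 15 and 1 in siSON and was below the filter. With no filter, 4 of 9 of these further tubulins tested were called, 3 of them higher, beside 43.1% of all genes tested. Without siControl replicate 1, 2 or 3 or siSON replicate 3, 4 of 5 tested were called, beside 65.7% to 68.4% of all genes.

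Newly made tubulin is folded by prefoldin and the CCT chaperonin and is joined into heterodimers by the tubulin cofactors TBCA to TBCE with ARL2. With TMM scaling all 8 CCT subunits were called higher (median log2 fold change 0.64, range 0.35 to 0.90), beside 35.2% of all genes tested. Among them CCT5 rose from 241 ± 6.45 to 448.5 ± 8.10 CPM, CCT3 from 262 ± 13.4 to 476 ± 12.8 CPM and CCT7 from 286 ± 2.03 to 454 ± 14.0 CPM (means ± SD of 3 libraries), which are log2 fold changes of 0.90, 0.86 and 0.67 (edgeR adjusted p 2.42e-08, 7.44e-08 and 1.98e-07). With cyclic loess 7 were called higher with a list median of 0.27, CCT5, CCT3 and CCT7 had 0.54, 0.50 and 0.30, and TCP1, named after its value was seen, had -0.012 (limma adjusted p 0.858). At that scaling 70.4% of all genes tested were called, and 51.7% of those calls were higher.

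With TMM scaling all 6 prefoldin subunits were called higher (median log2 fold change 0.82, range 0.19 to 1.20), beside 35.2% of all genes tested. PFDN1 rose from 57.5 ± 1.27 to 124 ± 7.11 CPM, PFDN4 from 20.5 ± 1.07 to 47.0 ± 2.47 CPM and PFDN2 from 49.7 ± 1.44 to 81.3 ± 5.74 CPM (means ± SD of 3 libraries), which are log2 fold changes of 1.11, 1.20 and 0.71 (edgeR adjusted p 2.93e-08, 7.18e-08 and 1.91e-06). With library size alone 4 were called, and with cyclic loess 5 were called higher and PFDN5, named after its value was seen, was called lower (-0.15). Of all genes tested, 71.1% and 70.4% were called at these scalings, and 37.7% and 51.7% of those calls were higher.

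The cofactors were mixed. Of 7 tested, 4 were called, 2 higher and 2 lower, with a median log2 fold change of -0.070, beside 71.7% called of all genes tested. TBCA, which binds free beta tubulin, rose from 97.2 ± 4.68 to 129 ± 8.69 CPM (log2 fold change 0.40, edgeR adjusted p 0.000154), and TBCD, which holds beta tubulin in the assembly complex, fell from 63.0 ± 1.53 to 44.9 ± 2.64 CPM (-0.49, adjusted p 3.23e-05; SD, n = 3 each). TBCB, which binds alpha tubulin, had a log2 fold change of -0.25 (edgeR adjusted p 0.00345). TBCE, which binds alpha tubulin too, had 0.719 ± 0.195 and 1.45 ± 0.0882 CPM (means ± SD of 3 libraries; log2 fold change 1.01, edgeR adjusted p 0.00337), but the table lists a second, overlapping gene under that name, so its counts are uncertain. With library size alone 7 were called, 2 higher and 5 lower, with TBCA at 0.21 and TBCB at -0.45, and with cyclic loess TBCB was at -0.39 and TBCA was not called (0.15, limma adjusted p 0.051). Of all genes tested 71.1% were called with library size alone, and 37.7% of those calls were higher.

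Genes of tubulin mRNA decay were called in both directions, 5 higher and 7 lower of 12 tested (median log2 fold change -0.23), beside 35.2% higher and 36.5% lower of all genes tested. The list holds TTC5, SCAPER and 10 subunits of CCR4-NOT. TTC5 had 21.6 ± 0.0432 and 18.2 ± 0.791 CPM and SCAPER 10.7 ± 0.797 and 6.83 ± 0.612 CPM (SD, n = 3 each), log2 fold changes of -0.25 and -0.65 (edgeR adjusted p 0.0088 and 0.000211); both are outside the rule for named genes and were chosen after their values were seen. CNOT11, the subunit that SCAPER contacts, fell from 49.2 ± 0.260 to 33.5 ± 4.16 CPM (means ± SD of 3 libraries; log2 fold change -0.56, edgeR adjusted p 0.000136). CNOT6, a catalytic deadenylase subunit, and CNOT3 fell with log2 fold changes of -0.998 and -0.47 (edgeR adjusted p 8.2e-07 and 3.2e-05). CNOT1, the scaffold, rose from 147 ± 8.91 to 244 ± 21.7 CPM (means ± SD of 3 libraries; log2 fold change 0.73, edgeR adjusted p 3.13e-06), and CNOT10 and CNOT9 rose with log2 fold changes of 0.59 and 0.34 (edgeR adjusted p 1.59e-05 and 0.000201). With library size alone CNOT10 and CNOT9 were at 0.39 and 0.14. With cyclic loess 2 were called higher and 7 lower, CNOT1 was at 0.42, and CNOT9 was not called (0.093, limma adjusted p 0.133). At that scaling 70.4% of all genes tested were called, and 51.7% of those calls were higher.

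**Figure D4:**
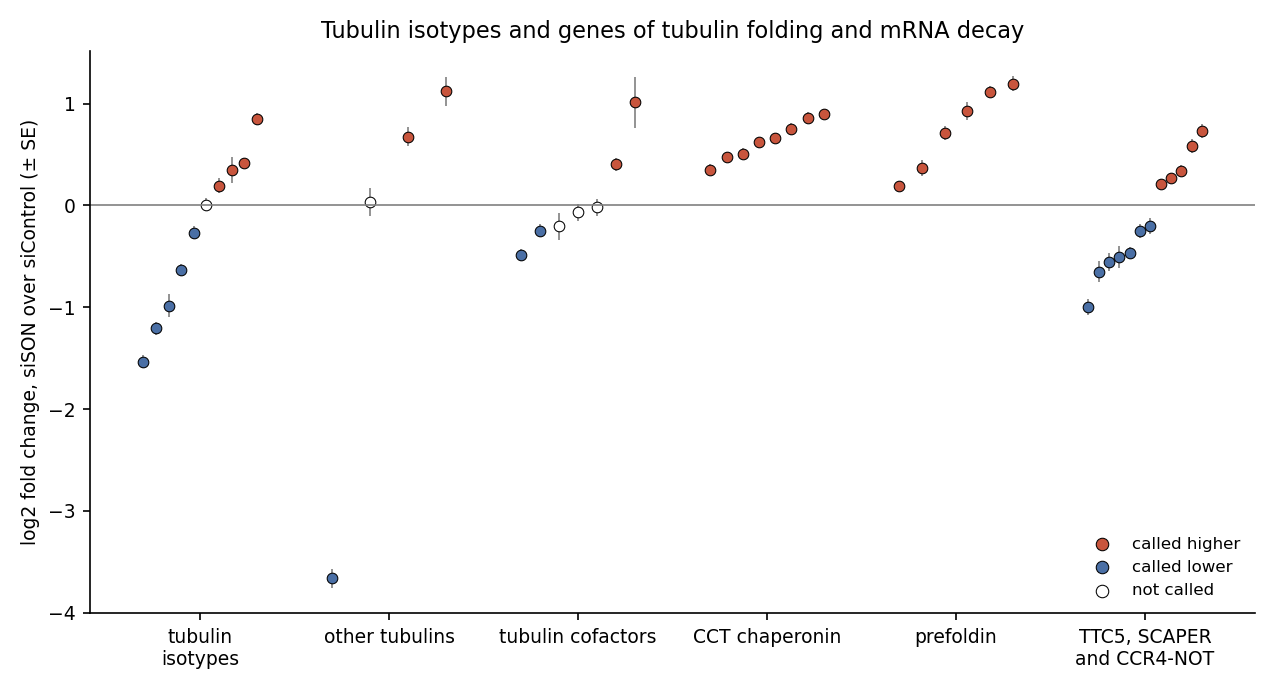
Log2 fold change ± SE (siSON over siControl, TMM scaling) of the 10 tubulin isotypes and of the tested genes of 5 related lists, each point a gene, ordered by value within its list (red called higher, blue called lower, white not called). All CCT and prefoldin genes lie above 0 at this scaling (TCP1 and PFDN5 do not with cyclic loess), while the isotypes spread from -1.53 to 0.85.

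Several isotypes are enriched in neurons, so neuronal markers were examined beside them. Of 10 markers, RBFOX3, DCX, STMN2, ELAVL4 and NEFL were at 0 counts in all 6 libraries, and the summed level of the list was 24.1 to 28.2 CPM in siControl and 43.7 to 47.8 CPM in siSON. Of the 10, 3 were tested, and 2 were called higher and 1 lower, beside 35.2% higher and 36.5% lower of all genes tested. MAP2 made up most of the sum, with 20.3 ± 2.73 and 36.5 ± 2.33 CPM (SD, n = 3 each), and rose by 0.85 on the log2 scale (edgeR adjusted p 1.27e-05). SNAP25 rose from 5.05 ± 0.751 to 9.11 ± 0.907 CPM (SD, n = 3 each), also by 0.85 (edgeR adjusted p 0.000142). SYP, a synaptic vesicle protein, was called lower (log2 fold change -2.40, edgeR adjusted p 0.00899) on few counts, 13, 30 and 13 in siControl and 1, 5 and 2 in siSON. ELAVL3, below the filter, had 7, 6 and 1 counts in siControl and 0 in each siSON library. The summed epithelial markers, nearly all KRT8 and KRT18, were 764.5 to 864 CPM in siControl and 1331 to 1393 CPM in siSON. KRT18 rose by 1.48 and KRT8 by 0.34 on the log2 scale (edgeR adjusted p 2.7e-09 and 0.000273). KRT19, EPCAM and CDH1 were below the filter, with at most 22 counts in any library. Their means were 0.158, 0.110 and 0.105 CPM in siControl and 0.104, 0.0066 and 0.052 CPM in siSON. The summed mesenchymal markers were 14990 to 17680 CPM in siControl and 14800 to 16320 CPM in siSON. VIM and FN1 made up nearly all of the mesenchymal sum and were not called, whereas COL1A1 fell to 27.8% of control (log2 fold change -1.85, edgeR adjusted p 8.67e-07) and CDH2 rose by 0.66 (edgeR adjusted p 3.43e-07). The part of these markers in the tubulin values was not tested.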

How the data were processed

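Messenger RNA was sequenced in 6 libraries, 3 siControl and 3 siSON, with 54572365 to 69764836 counts each. In these libraries 3 counts correspond to 0.0402 to 0.0590 CPM, which is a conversion of units and not a measure of error. The file deposited by the authors holds raw gene-level counts, unnormalized, with 1 column per library. The submitters' processing notes name cutadapt 1.16, STAR 2.5.2a, featureCounts 1.6.2, DESeq2 1.28.1 and hg38, without roles; annotation, strand setting and multi-mapping rule are not given in the sources used here. All 58735 identifiers matched GENCODE 29 (GRCh38), from which positions, exons and sequences were taken; of 2 genes named TBCE, the one paired with that symbol in the name table was kept. Protein sequences were not used here.

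The quasi-likelihood test of edgeR 4.0.16 was run under R 4.3.3 (filterByExpr with minimum count 10, TMM, robust fit, group as sole predictor), with Benjamini-Hochberg adjustment over 16591 genes and a threshold of 0.05. SE is the absolute log2 fold change over the square root of F. Replicates differed by more than sampling noise in every pair (chi-square per degree of freedom 7.21 to 26.3). Isotype ratios used 2-sided exact permutation tests (scipy 1.17.1). The fit was also run on simulated counts in which only a small part of the genes was changed, in both directions. That run therefore does not bear on the scaling of these data. Alternatives were DESeq2 1.42.0, limma 3.58.1 (voom, cyclic loess), RLE factors, library size alone, other filters, each library left out and a replicate block. The members, lists and alternatives were chosen with earlier results of these data known. Named genes were the 10 members, SON and, of each further list, the 3 called genes of lowest adjusted p per direction; every other gene named with a value (TUBE1, TUBA8 and the tubulins at or near 0, TCP1, PFDN5, TTC5, SCAPER, overlapping genes, pseudogenes and single cell type markers) was chosen after values were seen.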

Additional observations from a re-analysis of the deposited data

How the results depend on the processing

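Of the 10 isotypes, TUBA1A, TUBA4A, TUBB, TUBB3, TUBB4B and TUBB6 kept their direction and their call under all 14 alternatives. TUBA1B reversed to -0.19 with library size alone, -0.051 with a mean count of at least 50 and -0.48 with cyclic loess, and ran from -0.042 to 0.089 when each library was left out. TUBA1C reversed to -0.0029 with cyclic loess and TUBB2A to -0.0034 with library size alone; the cause was not tested. Members called higher (4) numbered 2 with library size alone, 2 with a mean count of at least 50, 2 with cyclic loess and 2 to 4 with a library left out, while members called lower stayed at 5 to 6. Cofactors called (4) numbered 7 with library size alone. With library size alone the summed alpha difference moved from -0.094 to -0.29 and the summed beta difference from -0.46 to -0.66. The size of each move, not the difference itself, was about the -0.20 shift of all genes under that scaling. Calls over all genes (11888) ran from 10226 to 12604, and from 11153 to 11783 with a library left out. The number of genes tested moved too. With a mean count of at least 50, 77.8% of 13136 genes were called, and with no filter 43.1% of 29256. With a library left out the called share was 65.7% to 69.0%. With library size alone and cyclic loess, 71.1% and 70.4% were called, and 37.7% and 51.7% of those calls were higher. Adding pseudogenes left the alpha sum at -0.094 and the beta sum at -0.46; the union exon length, chosen after seeing the data, gave -0.13 and -0.51.

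Same-numbered libraries had correlations of deviations of 0.194, 0.0461 and 0.118, and differently numbered ones of -0.138 to 0.0286. The labels do not state what the numbers mean, so the main fit did not pair the libraries. Every library correlated best with its own number, and the sequencing sample numbers in the column headers are consecutive for same-numbered libraries, but neither says that they share a culture or day. With the replicate block 12313 genes were called and 9 of the 10 isotypes, 4 higher and 5 lower, and the sign-flip test of the isotype ratios over pairs gave exact p of 0.25 to 0.5, where 0.25 is the smallest it can give.

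The lowest isotype, TUBB2B, rested on 223 to 300 counts per library, and TUBB3 on 231 to 762, so depth limits these more than the other isotypes.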
